A study of Mus musculus with 28 samples.

Results

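Of 18193 genes measured with an unambiguous probe set, 32 had a transcript level in wild-type (WT) mouse bladder that was at least 1.5 higher on the log2 scale at embryonic day 18 (E18) than at E15, that reached at least 8 at E18, and that lay at least 1 lower in p63 knockout (KO) bladder at E18. These 32 genes are described here. The first and second conditions alone were met by 360 genes, and the third left 32 of them. Levels came from Affymetrix mouse 430 2.0 arrays, which read each transcript with 1 or more sets of short probes (probe sets) near its 3' end. For each gene the probe set of highest mean is used. A level is 1 deposited log2 value per array, so a difference of 1 is a doubling, and a level of one gene cannot be set against that of another.

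The series compared Balb/c fetuses with and without p63, whose gene is called Trp63 in mouse, in 5 organs. Bladder was taken at all of E15, E18 and E19. At E18 the series adds both parts of the stomach, proximal and distal, and both intestines, small and large. Each of the 14 combinations of genotype, organ and stage has 2 arrays, 28 in all, with n = 2 behind every group mean. The KO groups differ from the WT groups of the same organ and stage in genotype alone, as far as the labels go. The sources used here do not give the p63 allele, the dissection, the number of fetuses, or whether both samples of a group are separate animals. The p-values therefore measure the spread between these samples, which may be technical.

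p63 is a transcription factor of the p53 family that basal cells of stratified epithelia need. In the bladder it marks the basal and intermediate layers of the urothelium, the lining that holds urine, while umbrella cells at its surface carry plaques of uroplakin proteins. Basal cells build keratin filaments from the Krt5 and Krt14 proteins and sit on laminin-332.

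The bladder RNA carried urothelial markers in both genotypes. The uroplakin gene Upk1b lay between 12.88 and 13.93 on the 12 bladder arrays, and Upk3a between 12.75 and 14.29. The 4 E19 arrays stood apart from the other 24, with array medians of 7.48 to 7.53 against 7.73 to 7.86. Between E18 and E19, the uroplakin genes Upk1a and Upk2 were lower in both genotypes, with Upk1a at 12.81 and 13.00 in WT at E18 and at 10.72 and 10.89 at E19. Stage and array set therefore cannot be told apart wherever E19 is set against another stage, whereas KO against WT at E19 lies within that set. The KO E18 pair disagreed on several of the 32 genes, so the choice of genes rests in part on single arrays. Clca3a2 read 8.84 and 4.80 there, Cyp2f2 7.80 and 4.10, Krt15 11.74 and 8.70, and Krt4 11.09 and 8.15. Without the first of the KO E18 arrays the rule finds 38 genes, and without the second 28. Whole bladder was measured, as far as the labels say, and fewer cells of a type cannot be told apart from less RNA per cell.

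The genes were selected on the values of WT E15, WT E18 and KO E18, so these are given as a description without a test. The excess of WT E18 over WT E15 ran from 1.55 for Dnmt3l to 4.92 for Npy6r. KO lay below WT at E18 by as little as 1.07, for Ckmt1, while the difference for Krt5 was -4.83. Just inside the thresholds stood Dnmt3l, Mfap3l and Pkp1 with a WT excess of 1.55, 1.58 and 1.62, and just outside it Adam28, Itgb4 and Plek2 with 1.44, 1.43 and 1.43. For the level at E18, Igsf10, S100a3 and Cyp2f2 were just inside with 8.28, 8.34 and 8.37, and Aknad1, Pm20d1 and Bbox1 just outside with 7.85, 7.82 and 7.69. For the deficit of KO, Ckmt1, Rgs5 and Trp63 were just inside with 1.07, 1.09 and 1.10, and Fat2, Npas2 and Ly6d just outside with 0.98, 0.97 and 0.94. At E15 the 2 genotypes lay closer, with KO below WT for 15 of the 32 genes and at least 1 below for 3 of them. These were Krt15 with a difference of -2.04, Krt5 with -1.24 and Serpinb5 with -1.17, again as a description, because the rule favoured low WT values at E15.

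**Figure D1:**
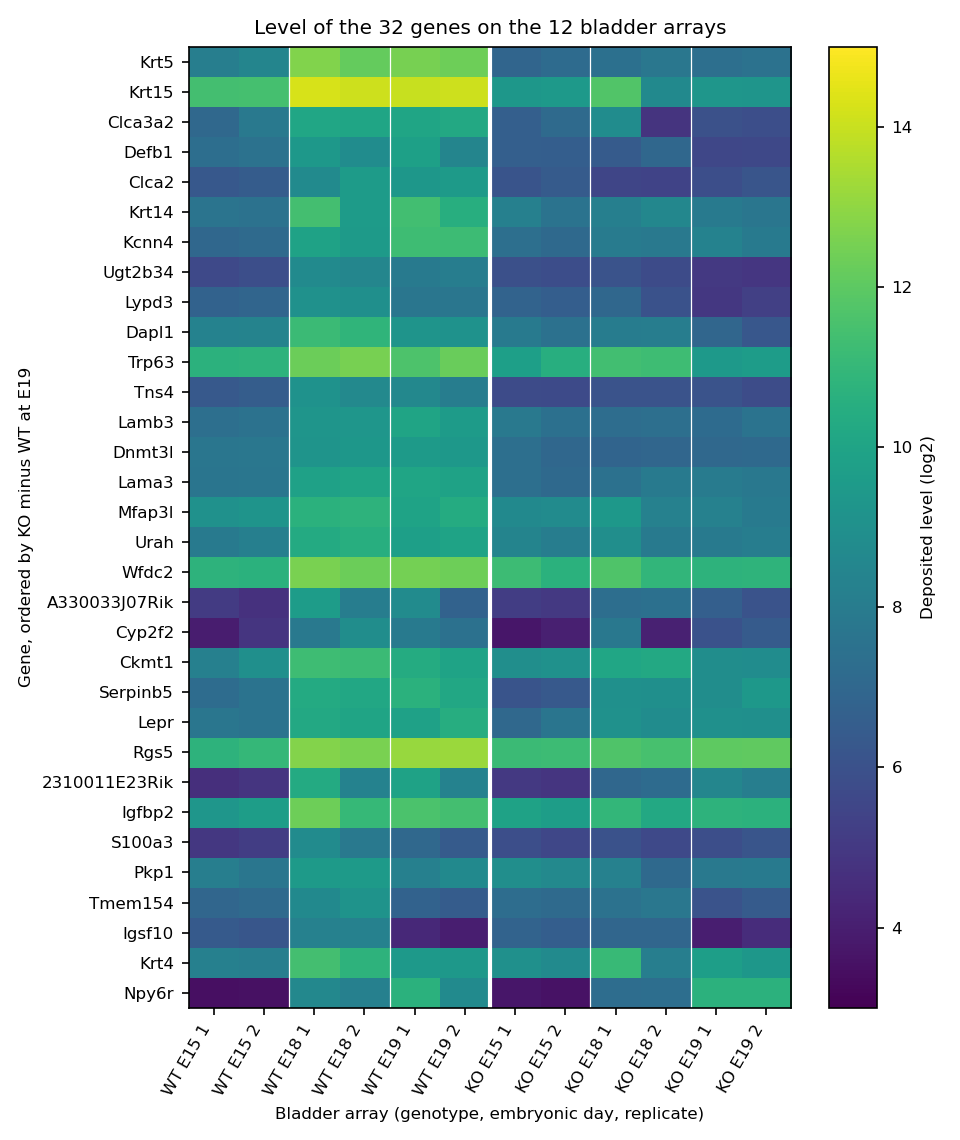
Deposited log2 level (colour) of the 32 genes (rows, ordered by KO minus WT at E19) on the 12 bladder arrays (columns, by genotype, embryonic day and replicate). Colours are to be read along a row; Krt5 in the top row is bright on the 4 WT arrays of E18 and E19, at 12.17 to 12.71, and dark on all 6 KO arrays, at 6.92 to 7.78.

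RefSeq promoter windows of mouse build GRCm38.p6, from 250 bases before to 50 bases after the transcription start, were found for 23 of the 32 genes. They were searched on both strands for 4 motifs. A half-site of the p53 family (3 purines, a C, a pair of A or T, a G and 3 pyrimidines) was found for 6 of the 23 genes, Cyp2f2, Krt5, Mfap3l, Rgs5, S100a3 and Urah, against 9.55% of 27025 genes. The AP-1 motif TGANTCA was found for 4 of 23, among them Igfbp2, Serpinb5 and Tmem154, against 8.97%. The grainyhead motif AACCNGGTT occurred for Mfap3l alone among the 23, against 0.315%, and the GATA motif AGATAA for 3, among them Mfap3l and Rgs5, against 12.7%. Genes with an entry had 1.57 windows on average here and 1.22 over all genes, which gives these genes more sequence to match. A match is a description of letters, not a bound site.

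3 windows are printed because they belong to a basal keratin, a serpin and a cytochrome whose KO courses are given further on. Capitals mark the half-site in Krt5 (chr15:101712856-101713155, minus strand, positions -95 to -86 from the start) and Cyp2f2 (chr7:27119705-27120004, plus strand, -21 to -12). They mark the AP-1 motif in Serpinb5 (chr1:106860925-106861224, plus strand, -140 to -134).
Krt5: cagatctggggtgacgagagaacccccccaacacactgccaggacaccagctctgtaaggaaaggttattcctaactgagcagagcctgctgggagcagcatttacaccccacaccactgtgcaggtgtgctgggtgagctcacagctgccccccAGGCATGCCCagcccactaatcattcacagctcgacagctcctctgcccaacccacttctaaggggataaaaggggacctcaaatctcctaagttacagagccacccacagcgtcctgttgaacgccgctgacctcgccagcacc
Serpinb5: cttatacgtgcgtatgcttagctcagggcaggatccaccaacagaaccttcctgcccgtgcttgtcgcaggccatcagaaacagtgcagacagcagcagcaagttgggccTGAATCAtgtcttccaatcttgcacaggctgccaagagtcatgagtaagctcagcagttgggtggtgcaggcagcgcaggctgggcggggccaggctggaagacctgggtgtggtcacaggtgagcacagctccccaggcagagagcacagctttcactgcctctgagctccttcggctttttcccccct
Cyp2f2: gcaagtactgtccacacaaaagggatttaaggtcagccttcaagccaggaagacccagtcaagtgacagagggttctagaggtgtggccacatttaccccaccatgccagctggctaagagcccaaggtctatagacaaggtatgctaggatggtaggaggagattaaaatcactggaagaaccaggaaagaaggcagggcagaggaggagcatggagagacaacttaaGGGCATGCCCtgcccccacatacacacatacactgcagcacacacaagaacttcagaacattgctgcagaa

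Whether the KO deficit of E18 was also present on arrays that the rule did not use was asked at E19. There, 23 of the 32 genes were lower in KO, none was higher and 9 did not pass the test (limma's moderated test on all 28 arrays, Benjamini-Hochberg adjusted p under 0.05 over 13613 genes). At an unadjusted p under 0.05, limma counted 25 lower and 1 higher. Among all genes tested 6.50% were lower and 13.5% higher in that comparison. The median difference of the 32 genes was -1.97, against 0.09 for all genes. The other 328 genes that met the WT conditions but not the KO condition had a median of 0.10, with 36 lower and 40 higher. Because the KO level at E18 separated them from the 32, part of this contrast between the sets is built in. Both KO values lay below both WT values for 28 of the 32 genes, where 23.2% of all genes did so, and above them for 1, where 41.5% of all genes did so. With 2 arrays on each side, the smallest p that exact permutation allows is 0.333, so a call depends on the spread that limma borrows from other genes and groups. Of the 23 genes lower at E19, 20 were called under each of the 13 alternative settings or omissions that were run.

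**Figure D2:**
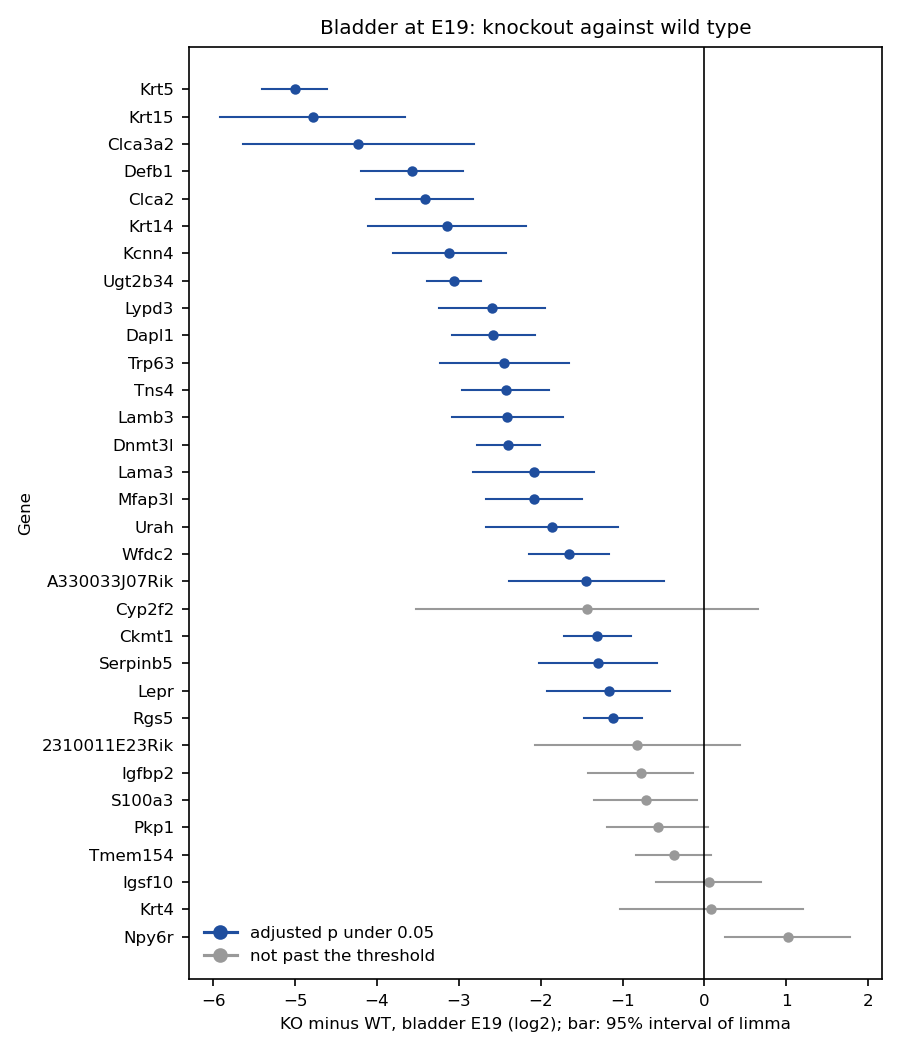
KO minus WT in bladder at E19 for the 32 genes on the log2 scale, with points for limma's estimate and bars for its 95% interval, blue where the adjusted p is under 0.05. The estimates run from -5.01 for Krt5 to 1.02 for Npy6r, and the 23 blue points all lie below 0.

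Trp63 itself is the gene that the knockout targets and 1 of the 32. It read 11.67 and 12.28 in WT at E19 and 9.44 and 9.62 in KO, so the groups did not overlap. KO was lower by 2.44 (SE 0.38, adjusted p = 1.5e-04). Its 2 other probe sets past the filter gave -0.43 and -0.73 at E19 with adjusted p = 0.126 and 0.104, and the mean of its probe sets gave -1.20. Where its probes lie relative to the deleted part is not stated, so the level of Trp63 checks no label. In proximal stomach Trp63 read 13.16 and 13.31 in WT and 13.67 and 13.78 in KO, a difference of 0.49 (adjusted p = 0.357), or of 1.01 when its probe sets are averaged (adjusted p = 0.0012).

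Of the 3 basal keratins, Krt5 and Krt15 had the largest differences among the 32 genes at E19, and Krt14 a smaller one. Krt5, which pairs with Krt14 in basal cell filaments, read 8.12 and 8.48 in WT at E15, 12.71 and 12.17 at E18 and 12.54 and 12.35 at E19. In KO it read 6.92 and 7.20, then 7.44 and 7.78, then 7.37 and 7.51. No KO array at any stage reached the lowest WT array. At E19 KO was lower by 5.01 (SE 0.19, adjusted p = 3.1e-13 by limma), which is 32.2-fold and the largest difference of the 32 genes at that stage.

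Krt15, another basal keratin, read 14.01 and 14.07 in WT and 9.28 and 9.24 in KO at E19. KO was lower by 4.78 (SE 0.54, adjusted p = 6.4e-06). Its SE pools the spread of all 14 groups, including the KO E18 pair described above. Krt14 read 11.35 and 10.52 in WT and 7.89 and 7.69 in KO and fell by 3.14 (SE 0.46, adjusted p = 9.5e-05). The chosen Krt14 probe set can match related sequences, and another Krt14 probe set gave -3.42 with adjusted p = 1.8e-04. Krt4, a keratin of the upper layers of non-cornified lining, did not share this: at E19 it read 9.50 and 9.41 in WT and 9.74 and 9.35 in KO, and the difference was 0.09 (SE 0.54, adjusted p = 0.93).

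Genes of adhesion to the basement membrane were lower as well. Lama3 and Lamb3 encode the alpha and beta chains of laminin-332, which anchors basal cells. Lama3 read 10.05 and 9.90 in WT and 7.97 and 7.80 in KO at E19, and Lamb3 10.01 and 9.57 against 7.20 and 7.57. Lama3 fell by 2.09 (SE 0.35, adjusted p = 3.4e-04) and Lamb3 fell by 2.41 (SE 0.32, adjusted p = 3.8e-05), without overlap of the groups. Tns4, a member of the tensin family, read 8.62 and 8.10 against 6.06 and 5.80 and fell by 2.43 (SE 0.26, adjusted p = 2.6e-06). Pkp1, a plaque protein of desmosomes, read 8.24 and 8.69 in WT and 7.85 and 7.94 in KO. Its groups did not overlap, but its difference of -0.57 did not pass the test (adjusted p = 0.19).

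Genes at the epithelial surface included some of the largest falls. Clca3a2 and Clca2 belong to the family of calcium-activated chloride channel regulators. Clca3a2 read 10.05 and 10.26 in WT at E19 and 5.98 and 5.88 in KO and fell by 4.23 (SE 0.68, adjusted p = 2.1e-04). Clca2 read 9.35 and 9.52 against 5.89 and 6.14 and fell by 3.42 (SE 0.28, adjusted p = 1.3e-07). Neither pair of groups overlapped, and on all 6 KO bladder arrays Clca2 lay between 5.41 and 6.43, against 6.31 and 6.50 in WT at E15. Clca3a2 has a close relative, Clca3a1, and the arrays may not separate their transcripts. Clca3a1 was lower by 1.24.

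Kcnn4, a calcium-activated potassium channel, read 11.26 and 11.23 in WT and 8.30 and 7.96 in KO and fell by 3.12 (SE 0.33, adjusted p = 2.9e-06). It was 1 of only 2 genes, with Npy6r, whose WT mean was at least 1 higher at E19 than at E18. Defb1, a beta-defensin that kills bacteria at mucosal surfaces, read 9.83 and 8.48 in WT and 5.57 and 5.60 in KO and fell by 3.57 (SE 0.30, adjusted p = 1.4e-07). Wfdc2, a small secreted protein of many epithelia, read 12.50 and 12.37 against 10.78 and 10.79 and fell by 1.65 (SE 0.23, adjusted p = 6.7e-05). The KO and WT arrays did not overlap for any of the 3.

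Members tied to stratified epithelium split. Lypd3, a membrane-anchored protein of upper layers, read 7.70 and 7.72 in WT at E19 and 4.96 and 5.27 in KO and fell by 2.60 (SE 0.31, adjusted p = 1.3e-05). Dapl1, a gene of epithelial differentiation, read 9.23 and 9.11 against 6.94 and 6.25 and fell by 2.58 (SE 0.24, adjusted p = 7.3e-07). Serpinb5, the epithelial serpin also called maspin, read 10.67 and 10.20 against 8.86 and 9.41 and fell by 1.30 (SE 0.35, adjusted p = 0.011). All 3 pairs of groups were apart, but the call for Serpinb5 was lost without the first KO array (-1.03, adjusted p = 0.129) and without the first WT array (-1.07, adjusted p = 0.110), and the mean of its probe sets gave -2.10. S100a3, a calcium-binding protein known from hair, read 7.05 and 6.44 against 5.90 and 6.15, and its difference of -0.72 did not pass (adjusted p = 0.10).

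Among enzymes, Ugt2b34, a glucuronosyltransferase of drug and steroid clearance, read 7.94 and 8.09 in WT and 4.99 and 4.92 in KO and fell by 3.06 (SE 0.16, adjusted p = 5.9e-11). Urah, an enzyme of urate breakdown, read 9.78 and 9.95 against 7.91 and 8.11 and fell by 1.86 (adjusted p = 0.0021). Ckmt1, the mitochondrial creatine kinase, read 10.39 and 9.94 against 8.87 and 8.86 and fell by 1.31 (adjusted p = 1.1e-04). In these the KO arrays all lay below the WT arrays. Cyp2f2, a cytochrome P450 known from airway club cells, read 7.90 and 7.46 against 6.02 and 6.47, also apart, but with a difference of -1.44 and an SE of 1.0 it did not pass (adjusted p = 0.34). The KO E18 pair and a KO distal stomach pair at 4.25 and 8.66 enter that SE. When only the 4 arrays compared were fitted, adjusted p = 0.013.

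The remaining genes have more diverse roles. Dnmt3l, a cofactor of DNA methylation known from germ cells, read 9.56 and 9.41 in WT and 7.06 and 7.10 in KO and fell by 2.40 (SE 0.18, adjusted p = 5.0e-08). Mfap3l read 9.96 and 10.38 against 8.28 and 7.90 and fell by 2.08 (adjusted p = 3.7e-05). Rgs5, a brake on G protein signalling that is known from pericytes of small vessels, read 13.13 and 13.20 against 12.03 and 12.08 and fell by 1.11 (adjusted p = 1.4e-04). The KO and WT arrays did not overlap for any of these genes.

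Lepr, the leptin receptor, read 9.86 and 10.48 in WT and 9.02 and 8.98 in KO and fell by 1.17 (adjusted p = 0.027). That call was lost without the first KO array (-1.19, adjusted p = 0.105), the second KO array (-1.15, adjusted p = 0.121) or the second WT array (-0.86, adjusted p = 0.208). The transcript A330033J07Rik, which has no established role, read 8.77 and 6.79 against 6.62 and 6.07 and fell by 1.44 (adjusted p = 0.031). It rested on the first WT array, since the difference without it was -0.45 (adjusted p = 0.53), and the call was also lost without either KO array (-1.72 with adjusted p = 0.058, and -1.17 with adjusted p = 0.208).

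The other genes that did not pass at E19 were Igfbp2, Tmem154, 2310011E23Rik, Igsf10 and Npy6r. Igfbp2, a binding protein of insulin-like growth factors, read 11.62 and 11.40 in WT and 10.74 and 10.72 in KO, a difference of -0.78 (adjusted p = 0.080). Tmem154 read 6.80 and 6.47 against 6.06 and 6.45, and 2310011E23Rik 9.93 and 8.32 against 8.49 and 8.12, with differences of -0.38 and -0.82. Igsf10 read 4.40 and 4.03 against 4.01 and 4.52 at E19, after 8.28 and 8.28 in WT at E18, so both genotypes lay near the low end of the scale at E19.

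Npy6r, a receptor of the neuropeptide Y family, had a positive difference. It read 3.48 and 3.53 in WT at E15, 8.60 and 8.25 at E18 and 10.66 and 8.72 at E19, and in KO 3.73 and 3.59, then 7.28 and 7.34, then 10.73 and 10.69. Both KO arrays at E19 lay above both WT arrays, the higher of which was 10.66. The difference of 1.02 (SE 0.37) missed the threshold (adjusted p = 0.0546). It passed with each array centred on its median (1.05, adjusted p = 0.0498) and without the first WT array (1.99, adjusted p = 5.7e-05).

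Other probe sets were also read at E19. Of the 32 genes, 14 had a further probe set past the filter on low levels, 21 probe sets in all. Of these, 20 belonged to genes lower at E19, and all 20 were below 0 at E19, 17 of them with an adjusted p under 0.05 over all probe sets. The remaining probe set, of Krt4, gave -0.14 (adjusted p = 0.86), where the chosen one gave 0.09. The mean of this Krt4 probe set in WT was 10.19 at E18 and 10.39 at E19, so it did not have the lower E19 level of the chosen one.

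How the 32 genes behave with stage in KO bladder alone was asked with E19 against E15, 2 groups that the rule did not use. In this contrast 9 genes were higher, 8 lower and 15 did not pass, where 27.6% of all genes were higher and 41.1% lower. The median over the 32 was -0.12, against -0.16 for all genes. Of the other 328 genes with a WT excess at E18, 270 were higher and 4 lower in KO, with a median of 1.90. The 328 were set apart from the 32 by their KO level at E18, so part of the gap between these 2 sets is built in. Centring each array on its median moved the median of all genes to 0.16 and gave 11 higher and 6 lower of the 32, and over all genes it moved the higher share of the calls from 40.1% to 57.2%. Quantile normalization gave 10 higher and 6 lower of the 32, with 49.8% of all calls higher. The KO E15 arrays also had the widest gaps between 3' and 5' actin probe sets, a sign of RNA length, at 1.12 to 1.33, against 0.64 to 0.70 at E19. With that gap in the model, 5 of the 32 were higher (Npy6r, 2310011E23Rik, Serpinb5, Cyp2f2 and Rgs5) and 2 lower (Igsf10 and Ugt2b34). Several genes lost their call there with values near or above the reported ones: Lepr with 1.76 (adjusted p = 0.068), A330033J07Rik with 1.57, Igfbp2 with 1.52, Lypd3 with -1.43 (adjusted p = 0.088) and Pkp1 with -0.92. Others lost it with smaller values: Dapl1 with -0.64, Defb1 with -0.74, Tmem154 with -0.47, Kcnn4 with 0.20 and Mfap3l with -0.12. The part of RNA length in the result was not tested beyond this.

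The 5 genes with the largest rise in KO were Npy6r, 2310011E23Rik, Serpinb5, Cyp2f2 and Lepr. Npy6r rose by 7.05 (SE 0.37, adjusted p = 1.4e-12) and 2310011E23Rik, from 5.01 and 4.85 to 8.49 and 8.12, by 3.37 (SE 0.60, adjusted p = 4.7e-05). Serpinb5 went from 6.10 and 6.35 at E15 through 9.02 and 8.96 at E18 to 8.86 and 9.41, a rise of 2.91 (SE 0.35, adjusted p = 2.7e-07). Its KO course thus ran beside the WT course, which began at 7.24 and 7.55 and ended at 10.67 and 10.20, and the KO arrays were below the WT arrays at each stage. Lepr, at 7.06 and 7.68 at E15, rose by 1.63 (SE 0.36, adjusted p = 4.6e-04). Cyp2f2 rose by 2.34 (SE 1.0, adjusted p = 0.044), a call lost when any 1 of the 4 arrays was left out, where the adjusted p was 0.087 to 0.154. It was also lost with quantile normalization (2.24, adjusted p = 0.053) and array weights (2.34, adjusted p = 0.071), and the actin term moved the value to 6.97 (adjusted p = 0.0031). The others were A330033J07Rik by 1.26, Igfbp2 by 0.93, Kcnn4 by 0.90 and Rgs5 by 0.84. Without the second KO E15 array A330033J07Rik, Igfbp2 and Kcnn4 lost their calls (adjusted p = 0.087, 0.070 and 0.114), and without the first KO E19 array A330033J07Rik and Kcnn4 did (adjusted p = 0.138 and 0.135). With probe sets averaged per gene, Kcnn4 was at 0.11 (adjusted p = 0.80) and Rgs5 at 1.34, and the actin term put Rgs5 at 1.58.

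Among the 23 genes lower than WT at E19, 5 were higher in KO at E19 than at E15, 5 were lower and 13 did not pass. The 5 that were lower were Lypd3 by 1.59, Dapl1 by 1.11, Defb1 by 1.02, Ugt2b34 by 0.92 and Mfap3l by 0.66. Averaging probe sets ended the call for Defb1 (0.02), Ugt2b34 (-0.19) and Mfap3l (0.06), and turned the direction for Defb1 and Mfap3l. Centring moved Ugt2b34 to -0.60, which still passed. For Mfap3l, centring (-0.34), quantile normalization (-0.28) and array weights (adjusted p = 0.054) also ended the call, as did leaving out either KO E15 array or the second KO E19 array (adjusted p = 0.089, 0.136 and 0.246). Igsf10, Tmem154 and Pkp1, which were not called against WT at E19, were lower by 2.43, 0.97 and 0.91, and Pkp1 lost its call without the first KO E15 array (adjusted p = 0.079) or the first KO E19 array (adjusted p = 0.052), with centring (-0.59) and with quantile normalization (-0.52). Krt5 was 0.38 higher (adjusted p = 0.084), and 0.70 higher after centring (adjusted p = 0.0036). Clca2 differed by -0.24 and Dnmt3l by -0.10, neither past the test, with adjusted p = 0.46 and 0.63. As a description, KO at E18 was at least 1 above KO at E15 for 8 of the 32 genes, among them Npy6r with 3.65 and Serpinb5 with 2.77.

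**Figure D3:**
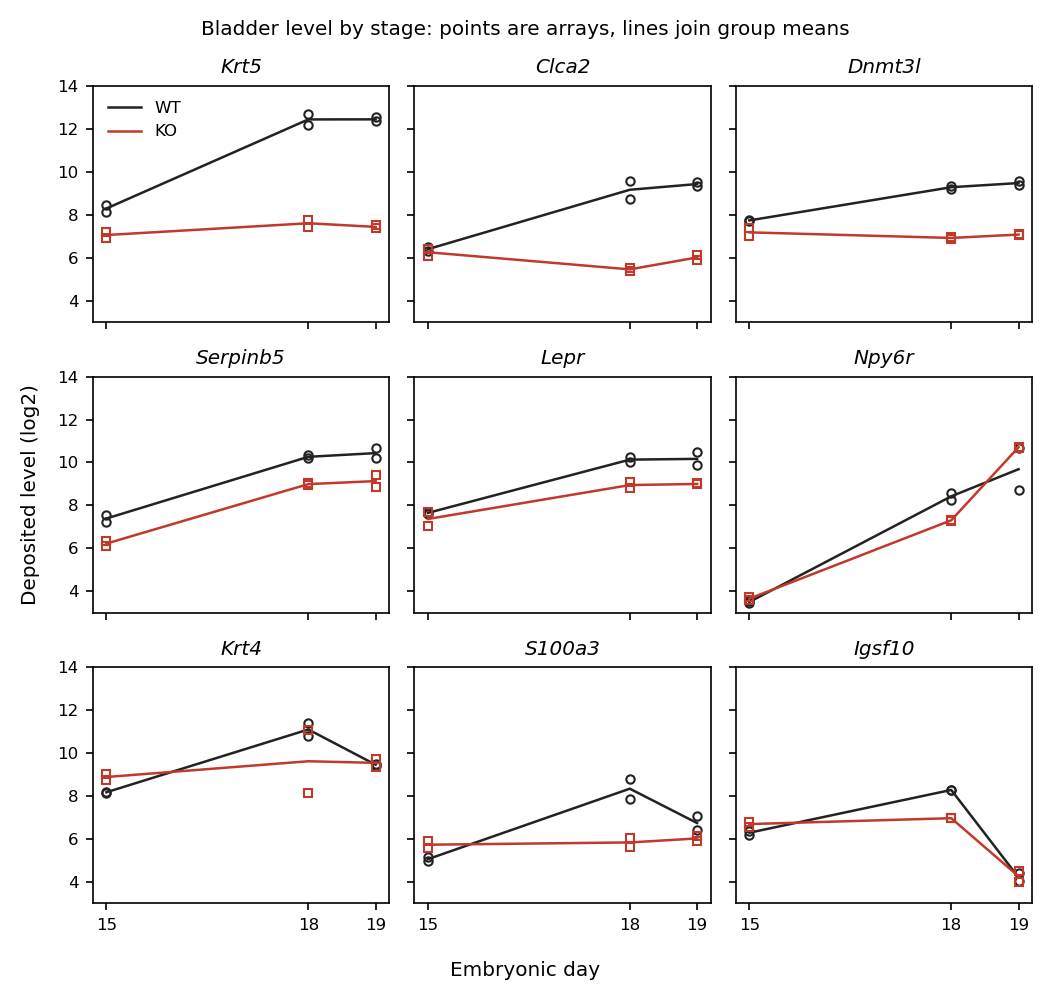
Deposited log2 level of 9 of the genes against embryonic day in bladder, with points for arrays and lines through the means of 2 arrays, WT in black and KO in red. Krt5, Clca2 and Dnmt3l stay low in KO; Serpinb5, Lepr and Npy6r are higher at E18 and E19 than at E15 in both genotypes; Krt4 (by the chosen probe set, not by its other one), S100a3 and Igsf10 are lower in WT at E19 than at E18.

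Lists of related genes showed where the 32 genes stood at E19, when 6.50% of all genes were lower and 13.5% higher. Of 19 tested genes of the basal stratified epithelium, 12 were lower and 1 higher at E19. Of these, 8 belong to the 32, and of the other 11, 5 were lower, with a median of -0.57. These were the hemidesmosome genes Itgb4 (-2.44), Col17a1 (-2.23) and Itga6 (-0.64), the tetraspan gene Perp (-0.96) and the desmosome gene Dsp (-0.57), while the neurotrophin receptor gene Ngfr was 0.75 higher. The urothelial differentiation list, which holds none of the 32, had 3 of 26 genes lower (Upk3bl, Krt13 and Krt7 with -2.71, -1.63 and -0.77) and 3 higher, with a median of 0.08. Its mean level was 11.89 and 11.95 in WT and 11.89 and 11.92 in KO at E19.

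Of 28 genes of squamous differentiation, 4 were lower, with Ivl at -1.82 and Krt13 beside Lypd3 and Dapl1, which are 2 of the 32 genes, and the median was 0.02. In the list of chloride channel regulators and mucins, 4 of 9 were lower, including Muc15 by 2.34, and 2 higher, Clca1 by 4.20 and Muc13 by 1.58. Clca2 and Clca3a2 are 2 of the 4, and of the other 7 genes 2 were lower and 2 higher, with a median of 0.14. In the detoxification list 5 of 22 were lower, Ugt2b34 with Sult1a1 (-1.13), Aldh1a3 (-1.02), Gsto1 (-0.85) and Cyp4b1 (-0.82), and none higher. In the signalling lists, 4 of 10 Hedgehog genes were lower, among them the ligand Shh by 1.35 and the target Hhip by 1.99, and 4 of 15 Notch genes, among them the target Nrarp by 1.17. Of 14 Wnt genes 3 were lower, led by the ligand Wnt10a by 3.52, and 2 higher.

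Markers of some other cells moved with genotype at E19, when 6.50% of all genes were lower and 13.5% higher. Of 22 intestinal epithelium genes 15 were higher in KO and none lower, with Guca2a, Tff3 and Clca1 higher by 4.41, 4.35 and 4.20. The mean level of the 22 was 6.47 and 6.59 in WT and 8.32 and 8.36 in KO. Cdx2, also on that list, did not follow, at 5.88 and 5.95 in WT and 5.19 and 5.80 in KO. On the WT arrays of small and large intestine Cdx2 read 13.01 to 13.88. Of 19 proliferation genes 15 were higher, with mean levels of 9.84 and 10.04 in WT and 10.68 and 10.71 in KO. Smooth muscle genes had 1 of 14 lower, with means of 13.87 to 13.88 in WT and 13.92 to 13.94 in KO, and fibroblast genes 1 of 17 higher. Mesothelium (4 of 10 higher), immune cells (3 of 21), neurons and glia (2 of 15) and endothelium (1 of 14 lower) had fewer calls. For immune cells, neurons and glia, and endothelium these counts were near the shares over all genes. The part of these cells in the differences of the 32 genes was not tested. In KO E18, neuron and skeletal muscle lists were higher on the first array than on the second, at 9.33 against 7.81 and 10.80 against 9.97.

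The proximal stomach, whose forestomach lining in the mouse is also stratified, was asked next, since none of its arrays entered the rule. Of the 32 genes 11 were lower in KO there, 4 higher and 17 did not pass, with 14.6% of all genes lower and 18.1% higher. The median was -0.13, against 0.02 for all genes. The actin gap was wider in WT, at 0.97 and 0.88, than in KO, at 0.48 and 0.61. With that gap in the model Kcnn4 (1.35, adjusted p = 0.085) and Igsf10 (1.37, adjusted p = 0.062) lost their calls and Cyp2f2 passed (5.11, adjusted p = 0.0095). Of the 23 genes lower in E19 bladder, 9 were lower in proximal stomach, 2 higher and 12 did not pass. Krt5 read 14.10 and 13.99 in WT and 8.22 and 8.27 in KO and fell by 5.80 (SE 0.19, adjusted p = 1.4e-15), and Krt14 12.84 and 12.16 against 7.08 and 6.84 and fell by 5.54 (SE 0.46, adjusted p = 4.9e-09).

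Dapl1 read 14.70 and 14.41 in WT proximal stomach and 8.15 and 8.05 in KO and fell by 6.45, and Mfap3l 12.64 and 12.53 against 6.50 and 6.52 and fell by 6.07. Defb1 read 12.78 and 12.58 against 6.65 and 6.74 and fell by 5.98. 2310011E23Rik, named because it has the largest difference there, read 14.16 and 14.33 against 5.73 and 6.51 and fell by 8.13 (SE 0.60, adjusted p = 7.7e-10). The rest of the 11 were Clca2 by 5.01, Lypd3 by 4.39, Serpinb5 by 2.26, Tmem154 by 1.46 and Tns4 by 1.44.

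The 4 genes higher in KO proximal stomach were Wfdc2, S100a3, Kcnn4 and Igsf10. Wfdc2 read 8.82 and 9.16 in WT and 14.03 and 13.99 in KO, a rise of 5.02 (SE 0.23, adjusted p = 4.4e-13). S100a3 read 8.08 and 8.28 against 12.48 and 12.65, a rise of 4.38 (SE 0.30, adjusted p = 2.8e-10). Kcnn4 read 7.66 and 8.09 against 9.83 and 9.56, a rise of 1.82. All KO values of these 3 lay above the WT values. Igsf10 rose by 1.03 (adjusted p = 0.013), but not without the first KO array (0.67, adjusted p = 0.186) or the second WT array (0.57, adjusted p = 0.219).

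Several genes were high in proximal stomach in both genotypes. Krt15 read 14.36 and 14.59 in WT and 15.13 and 15.07 in KO there (0.63, adjusted p = 0.41), Krt4 14.55 and 14.69 against 14.51 and 14.66 (-0.04) and Pkp1 14.03 and 14.18 against 13.41 and 13.74 (-0.53, adjusted p = 0.19). Lama3 differed by 0.06 and Lamb3 by -0.41. Cyp2f2 read 11.72 and 10.93 in WT and 13.36 and 13.32 in KO, a difference of 2.01 that did not pass (adjusted p = 0.13). When only the 4 proximal stomach arrays were fitted, with the spread of these arrays alone, Krt15, Pkp1, Cyp2f2, Trp63 and Urah passed with the same differences (adjusted p = 3.3e-04, 0.0056, 2.6e-05, 0.0033 and 0.011). Beside these values, 24 of 28 genes of squamous differentiation were lower in KO proximal stomach, with a mean level of the 25 not among the 32 of 12.78 and 12.95 in WT and 8.39 and 8.71 in KO. Of 26 urothelial genes 18 were higher and 2 lower, with means of 10.14 and 10.52 in WT and 12.004 and 12.148 in KO. Among the uroplakin genes, Upk1a read 5.82 and 5.28 in WT and 10.89 and 11.06 in KO. Upk1b read 8.71 and 8.74 against 12.37 and 12.54, and Upk2 8.23 and 9.24 against 14.04 and 14.06. Upk3a did not follow, at 6.95 and 7.01 against 6.64 and 6.78. The lists do not name the cells present, and the part of cell types in the values of the 32 genes was not tested.

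The difference of the KO effect between proximal stomach and E19 bladder was tested directly. It passed for 23 of the 32 genes: 14 had the higher value in proximal stomach and 9 the lower, where 13.9% and 17.5% of all genes did. Wfdc2 differed by 6.67 (SE 0.33, adjusted p = 3.9e-12), Krt15 by 5.41, S100a3 by 5.10, Kcnn4 by 4.94 and 2310011E23Rik by -7.31. Kcnn4 and Wfdc2 were called in opposite directions in the 2 organs. The organs also differ in stage and array set, and these cannot be told apart from organ.

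**Figure D4:**
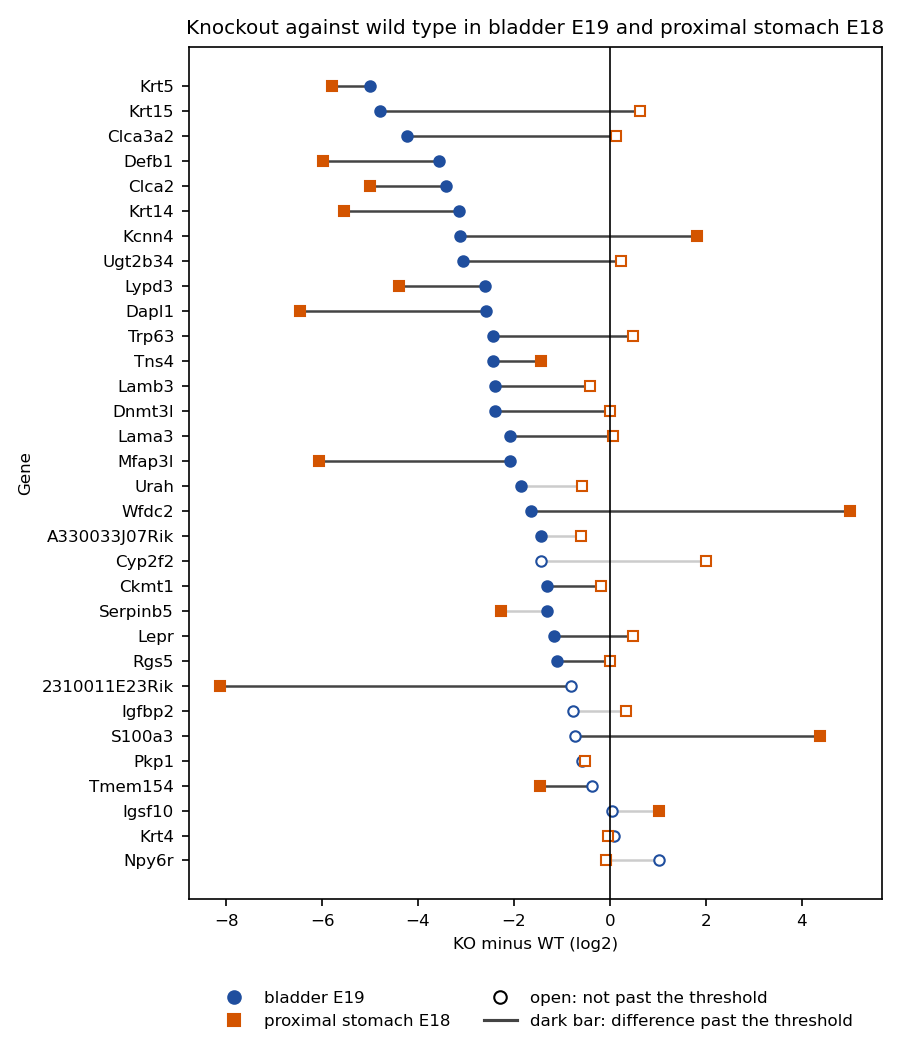
KO minus WT on the log2 scale in E19 bladder (circles) and E18 proximal stomach (squares) for the 32 genes, filled where past the threshold, joined by a dark bar where the difference between the organs is past it. Wfdc2 goes from -1.65 in bladder to 5.02 in proximal stomach, while Krt5 is at -5.01 and -5.80.

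In distal stomach, small intestine and large intestine, limma called none of the 32 genes lower or higher. At an unadjusted p under 0.05 it counted 0 lower and 3 higher in distal stomach, 1 and 1 in small intestine and 1 and 3 in large intestine. Over all genes tested, 0% were called lower and 0% higher in distal stomach and in small intestine, and 0.0294% lower and 0.0588% higher in large intestine. Single arrays mattered there. 2310011E23Rik was 3.58 higher in KO large intestine without the first KO array (adjusted p = 0.0070), and Lypd3 2.05 higher without the second WT array (adjusted p = 0.0013).

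Where the 32 genes are expressed in WT organs was compared last, with contrasts that used no array of the rule. Between proximal and distal stomach, 21 were higher in the proximal part, 6 lower and 5 did not pass, where 18.2% of all genes were higher and 22.3% lower. The median was 3.44, against -0.05. 2310011E23Rik was higher by 9.18, Krt4 by 8.80, Pkp1 by 8.61, Lypd3 by 7.23, Krt5 by 6.88 and Trp63 by 6.12. The genes lower in proximal stomach were Ugt2b34 by 5.17, Wfdc2 by 4.21, Kcnn4 by 2.66, Igsf10 by 1.17, Lamb3 by 0.88 and Ckmt1 by 0.67. Igsf10 lost its call without the second proximal array (-0.71, adjusted p = 0.112), as did Lamb3 (-0.66, adjusted p = 0.213) and Ckmt1 (-0.59, adjusted p = 0.065). Lamb3 and Ckmt1 also lost it without the first distal array (-0.48, adjusted p = 0.364, and -0.49, adjusted p = 0.119).

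Against the mean of distal stomach, small intestine and large intestine, WT bladder at E19 was higher for 26 of the 32 genes and lower for 3, where 32.8% of all genes were higher and 45.0% lower. The median was 2.07, against -0.18, and centring the arrays moved the median of all genes to 0.09 and gave 27 higher and 3 lower. Npy6r was higher by 6.26, Krt15 by 5.68, Trp63 by 5.56, Clca3a2 by 5.53 and Krt5 by 5.37. Ugt2b34, Ckmt1 and Igsf10 were lower, by 5.82, 3.81 and 3.19, and Igfbp2, Urah and Tmem154 did not pass. Lamb3, higher by 0.76, lost its call without the first WT bladder array (0.54, adjusted p = 0.176). Genotype aside, this contrast sets E19 arrays against E18 arrays. The rule also asked for a WT bladder level of at least 8 at E18, and 21 of the 32 genes stayed within 1 of their E18 level at E19. A high WT bladder level at E19 is therefore partly built in, and the shares over all genes do not allow for that.

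Over the 5 WT organs at E18, as a description, the highest mean was in proximal stomach for 19 genes, in bladder for 8, in distal stomach for 3 and in small intestine for 2. Clca3a2 read 4.39 and 4.38 in WT proximal stomach and 10.11 and 10.06 in WT bladder at E18, and Npy6r stayed between 3.28 and 3.59 on the 8 WT arrays of the other organs. Dnmt3l read 5.47 to 6.09 on those 8 arrays, below its 9.22 and 9.36 in WT bladder at E18. Ugt2b34 had the reverse pattern, at 13.72 to 13.93 on the 6 WT arrays of distal stomach and intestine.

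**Figure D5:**
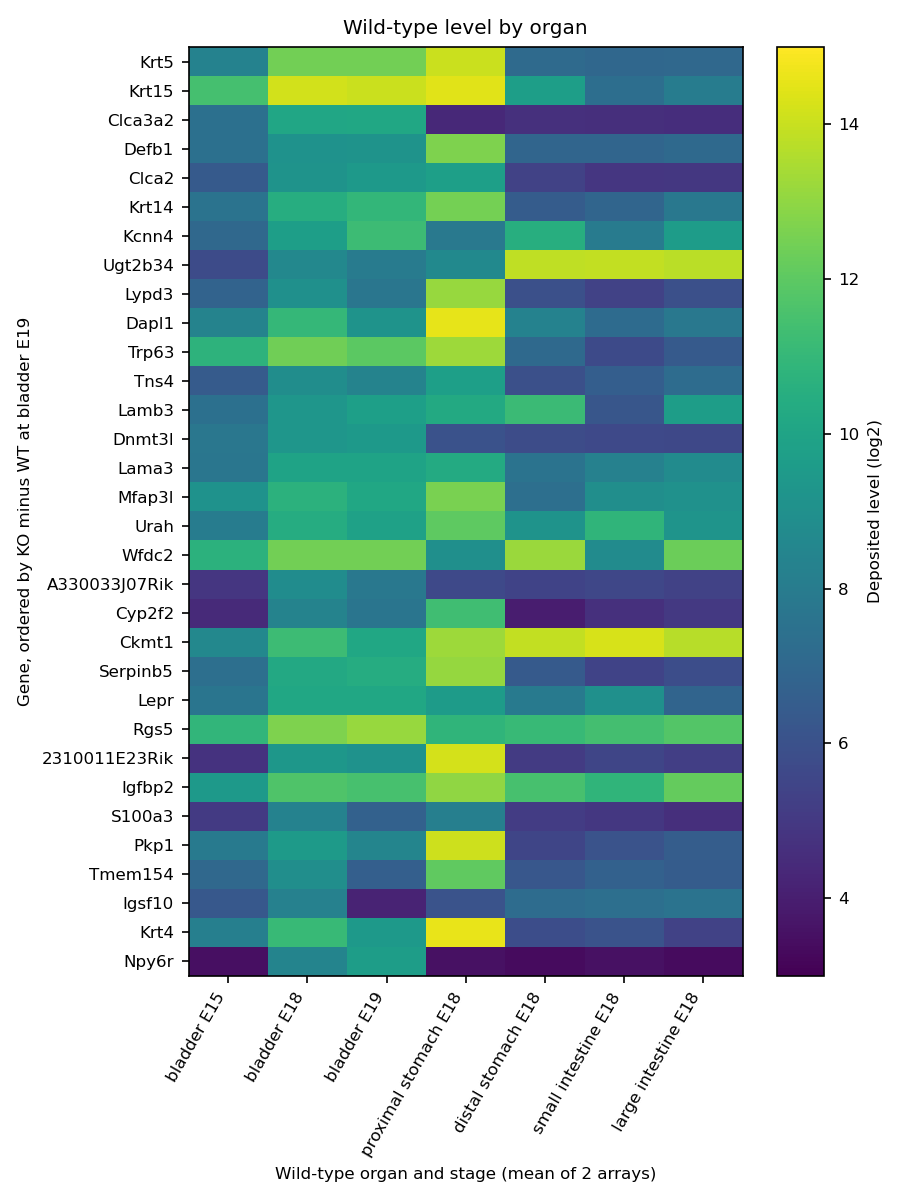
Mean deposited log2 level (colour) of the 32 genes (rows) in 7 WT groups (columns, each the mean of 2 arrays). Colours are to be read along a row; Clca3a2, Dnmt3l and Npy6r are brightest in E18 and E19 bladder, and Dapl1, Pkp1 and Krt4 are brightest in proximal stomach.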

How the data were processed

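The 28 arrays of p63 knockout and wild-type tissues were used as deposited: 1 log2 value per probe set and array. Affymetrix Expression Console and Partek made them, per the submitters' processing notes; the sources used here do not name a background correction or normalization. The number of arrays limits the precision. Of 45101 probe sets, 64 controls were left out, 34945 carried 1 gene symbol, 932 several and 9160 none (platform annotation). Probe sets above the array's median on at least 2 arrays entered the tests, with the highest-mean probe set per gene, giving 13613 genes. All 32 members passed, through the level the rule demands, and 31 of their symbols matched RefSeq. One limma 3.58.1 model (R 4.3.3) held 14 group means with a variance trend, 14 residual and 6.19 prior degrees of freedom, and 9 contrasts, two-sided and Benjamini-Hochberg adjusted; it was tested on simulated data. The members and the 26 gene lists were chosen with earlier results of these data known. Genes were named by list, by size of change among those called, and by nearness to a threshold; 2310011E23Rik and A330033J07Rik were added after their values were seen. The main model did not pair samples by array number. Of 7 pairs of same-numbered KO and WT arrays, 3 had residual correlations over 0.1, in proximal stomach, distal stomach and large intestine. Alternatives covered filter, normalization, probe set choice, weights, RNA quality, samples fitted, pairing, thresholds and leaving out arrays. One promoter window is not reported here.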

Additional observations from a re-analysis of the deposited data

Results flagged for a closer look

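Genes are given here because the KO effect, KO minus WT, differed between proximal stomach at E18 and bladder at E19 by limma's test of that difference (Benjamini-Hochberg adjusted p under 0.05). Each value is the proximal stomach effect minus the bladder effect on the log2 scale. Groups of 2 arrays are too small for a test of single outlying arrays.

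The difference was positive for 14 genes. Among secreted and surface genes it was 6.67 for Wfdc2, 4.94 for Kcnn4 and 4.36 for Clca3a2. Among basal and adhesion genes it was 5.41 for Krt15, 2.93 for Trp63, 2.15 for Lama3, 1.99 for Lamb3 and 0.99 for Tns4. For the remaining genes it was 5.10 for S100a3, 3.29 for Ugt2b34, 2.40 for Dnmt3l, 1.65 for Lepr, 1.13 for Ckmt1 and 1.11 for Rgs5.

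The difference was negative for 9 genes. The transcript 2310011E23Rik had -7.31, Mfap3l -3.99 and Dapl1 -3.87. Defb1 had -2.41, Krt14 -2.40, Lypd3 -1.79 and Clca2 -1.59, and Tmem154 and Krt5 had -1.08 and -0.79. In 7 of these 9, KO was called lower than WT in both organs. For 2310011E23Rik and Tmem154 KO was also below WT in both, but their bladder differences of -0.82 and -0.38 did not pass the test.

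Some of these calls rest on single arrays. Krt5 lost its call without the second KO bladder, either KO proximal stomach, the second WT bladder or the first WT proximal stomach array (-0.72, -0.77, -0.82, -0.70 and -0.73, adjusted p = 0.065 to 0.10). Lepr lost it without the second KO bladder, first KO proximal stomach, second WT bladder or second WT proximal stomach array (1.63, 1.57, 1.34 and 1.40, adjusted p = 0.050 to 0.087). Tmem154 lost it without the second KO or second WT bladder array (-0.89 and -0.92, adjusted p = 0.063 and 0.051). Tns4 lost it without either KO bladder, either KO proximal stomach, the first WT bladder or the first WT proximal stomach array (1.12, 0.86, 0.87, 1.11, 0.73 and 0.82, adjusted p = 0.051 to 0.180). For Tns4, centring (0.93, adjusted p = 0.058) and fitting only the arrays compared (0.99, adjusted p = 0.055) also ended the call. Averaging its probe sets gave 1.98 (adjusted p = 5.1e-04). Conversely, the difference passed for Npy6r without the first WT bladder array (-2.07) and for A330033J07Rik without the second (1.82). Igsf10 passed without the second KO proximal stomach array (1.35) or the first WT proximal stomach array (1.44).

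The actin gap between 3' and 5' probe sets also differed between the genotypes in proximal stomach. With it in the model, the difference lost its call for Krt14 (-2.21, adjusted p = 0.072), Krt5 (-0.68, adjusted p = 0.186), Lepr (1.73, adjusted p = 0.072), Tmem154 (-0.78, adjusted p = 0.166) and Tns4 (0.99, adjusted p = 0.153), and passed for Cyp2f2 (6.21, adjusted p = 0.0055).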

How the results depend on the processing

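Of 261 counts recomputed under an alternative, 249 stayed within 1.5 times the count reported, and no gene called at E19 reversed its direction there; for KO E19 against KO E15, Defb1 and Mfap3l turned when probe sets were averaged (0.02 and 0.06). The number of genes meeting the rule was 15 with a WT excess of at least 2 and a KO deficit of at least 1.5, 85 with 1 and 0.5, and 28 to 45 when 1 of the 6 arrays of the rule was left out, with 45 without the second WT E18 array. At E19 the count of higher genes was 1 instead of 0 with centred arrays, with no filter and with array weights. For KO E19 against KO E15, the actin term left 2 lower and 5 higher. Leaving out 1 array gave these ranges. KO minus WT at E19 had 20 to 22 lower and 0 to 1 higher, KO E19 against E15 had 6 to 7 lower and 5 to 8 higher, and proximal stomach had 11 lower and 3 to 4 higher. The difference between these organs had 12 to 14 higher and 7 to 10 lower, large intestine 0 to 1 higher, WT proximal against distal stomach 21 higher and 3 to 6 lower, and WT bladder against other organs 25 to 26 higher and 3 lower. With the replicate block, 24 of the 32 genes were lower at E19 instead of 23, with Igfbp2 added (-0.78, adjusted p = 0.0089), and 11 were lower and 4 higher in proximal stomach. The block result for the organ difference was 16 higher and 8 lower. Correlations of same-numbered arrays ran from -0.13 to 0.28. These values, from groups of 2 arrays, do not settle whether the numbers pair the arrays. With 2 arrays a group, the SE of the KO difference at E19 ran from 0.16 for Ugt2b34 to 1.0 for Cyp2f2.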
